A study of Mus musculus with 4 samples.

Results

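The collagen genes were taken as the 44 of 27998 genes in the count matrix whose symbol has the form Col, a number, a and a number. Each encodes an alpha chain of a collagen. By textbook class they comprised 11 fibrillar collagens, 6 chains of the basement membrane network (collagen IV), 6 chains of the beaded filaments (collagen VI), 1 anchoring fibril collagen, 3 hexagonal network collagens, 9 collagens that attach to fibrils (FACIT collagens), 4 transmembrane collagens, 2 multiplexins and 2 others. Sorted cells were profiled by droplet 3′ RNA sequencing from the back skin of CD1 mice aged 7 to 8 weeks. There were 4 libraries of 1 sample each: Ovol1 null with imiquimod (IMQ), Ovol1 null untreated, control with imiquimod, and control untreated. Imiquimod, a Toll-like receptor agonist used to provoke psoriasis-like inflammation, was given once as 62.5 mg of a 5% cream on the shaved back. The Ovol1 protein is a zinc finger regulator of transcription in epithelia. The Ovol1 allele, the cells that carry it, the sort gate, the number of mice behind a library and the time from dose to harvest are not given in the sources used here.

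Collagen chains are made in the endoplasmic reticulum, where prolines and lysines are hydroxylated and chains wind into a rigid helix, and are then secreted, trimmed and cross-linked outside the cell. In skin, dermal fibroblasts make most of the fibrillar collagens I, III and V, which give the dermis its tensile strength. Keratinocytes and vessel wall cells contribute collagens of the basement membrane zone, among them collagen XVII of the hemidesmosome and collagen VII of the anchoring fibrils, which tie epidermis to dermis.

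After filters on genes and mitochondrial reads and removal of predicted doublets, 5563 cells remained in the null-labelled IMQ library, 5221 in the null-labelled untreated, 5583 in the control IMQ and 6066 in the control untreated library. They held 55208531 unique molecular identifiers (UMIs, each a count of 1 captured RNA) in the null-labelled IMQ, 31579096 in the null-labelled untreated, 29706014 in the control IMQ and 37331165 in the control untreated library. Pairs of libraries shared 36 to 45 cell barcodes. Ovol1 was not lower in suprabasal keratinocytes of the libraries labelled null, which held 161 Ovol1 CPM (UMIs scaled to a class total of 1000000) in the null-labelled IMQ and 56.2 in the null-labelled untreated library, against 39.1 in the control IMQ and 44.9 in the control untreated library. A 3′ tag outside a deleted stretch does not check a label, and the deleted stretch is not given here, so the libraries are called null-labelled. Of 16 cell classes named from marker lists, 9 had at least 50 cells in every library. The null-labelled IMQ library stood apart. Of its 3052 cells called fibroblasts, 2494 lay in a cluster that stayed unnamed when all libraries were clustered together (led by Saa1, Pla2g2e, Saa3 and Timp1) and took their name from clustering that library alone. In every library fibroblasts expressed all 11 markers of the fibroblast list, which summed to 39677 CPM in the null-labelled IMQ, 42791 in the null-labelled untreated, 42303 in the control IMQ and 47891 in the control untreated library. Fibroblasts of different libraries mostly lay in different clusters: a cluster led by Aldh1a1 and Cyp2f2 held those of the control IMQ library, and 4 clusters led by Igfbp5, Has1, Gpx3 and F13a1 held those of both untreated libraries.

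The promoter windows of 4 members that the results turn on are printed here, the 250 bases before the annotated start, from RefSeq on GRCm38.p6, 5′ to 3′ on the strand of the gene: Col3a1 (chr1:45311288-45311537, plus strand) and Col5a1 (chr2:27886175-27886424, plus strand), fibrillar collagens that stood low together after imiquimod, Col7a1 (chr9:108953336-108953585, plus strand), the anchoring fibril chain, and Col23a1 (chr11:51289670-51289919, plus strand), which stood high in null-labelled IMQ fibroblasts. Capitals mark the CCAAT box, the TATAAA box and the CCGCCC box, which read ATTGG for the first, TTTATA for the second and GGGCGG for the last on the opposite strand.
Col3a1: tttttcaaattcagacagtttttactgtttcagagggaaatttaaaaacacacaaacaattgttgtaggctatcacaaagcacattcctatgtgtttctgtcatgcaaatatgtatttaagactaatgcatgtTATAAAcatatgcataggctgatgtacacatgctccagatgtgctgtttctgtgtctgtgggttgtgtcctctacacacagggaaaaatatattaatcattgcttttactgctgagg
Col5a1: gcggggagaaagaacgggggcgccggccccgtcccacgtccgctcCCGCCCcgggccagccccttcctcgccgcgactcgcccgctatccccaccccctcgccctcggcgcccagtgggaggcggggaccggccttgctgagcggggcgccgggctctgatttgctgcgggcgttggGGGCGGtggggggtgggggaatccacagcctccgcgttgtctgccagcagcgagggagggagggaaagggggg
Col7a1: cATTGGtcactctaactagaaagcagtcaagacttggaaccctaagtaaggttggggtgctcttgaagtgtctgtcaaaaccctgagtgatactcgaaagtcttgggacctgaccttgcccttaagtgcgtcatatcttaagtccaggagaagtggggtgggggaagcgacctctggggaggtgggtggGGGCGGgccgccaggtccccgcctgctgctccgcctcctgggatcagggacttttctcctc
Col23a1: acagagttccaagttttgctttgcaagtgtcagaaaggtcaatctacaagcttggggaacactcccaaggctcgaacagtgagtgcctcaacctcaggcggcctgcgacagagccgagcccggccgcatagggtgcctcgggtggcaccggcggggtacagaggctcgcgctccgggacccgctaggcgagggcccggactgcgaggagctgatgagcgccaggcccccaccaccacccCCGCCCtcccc
The window of Col3a1 held a TATAAA and neither of the other motifs, that of Col5a1 held CCGCCC on both strands, that of Col7a1 held ATTGG and GGGCGG, and that of Col23a1 held CCGCCC. Searched on both strands, CCGCCC was in 22 of 38 collagen windows in the table (57.9%) and in 32.7% of all 32851 windows of that length. CCAAT was in 13 of 38 (34.2%) against 33.8% of all windows, and TATAAA in 5 of 38 (13.2%) against 12.4%. These matches describe the letters and do not show binding.

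Over all kept cells the members had 4082412 UMIs, of which Col1a1, Col1a2 (the chains of collagen I) and Col3a1 (collagen III) held 94.9%. Col9a1 and Col10a1, collagens of cartilage, had no UMI, 11 members had 1 to 19 UMIs, 10 had at least 20 but under 500, and 21 had at least 500. The rarest included Col2a1, the main cartilage fibril chain, with 2 UMIs, and Col22a1, a FACIT chain, with 1. Col1a1 lies on chromosome 11 from 94936224 to 94953042, Col1a2 on chromosome 6 from 4504814 to 4541544 and Col3a1 on chromosome 1 from 45311538 to 45349706, all on the plus strand of GRCm38.

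**Figure D1:**
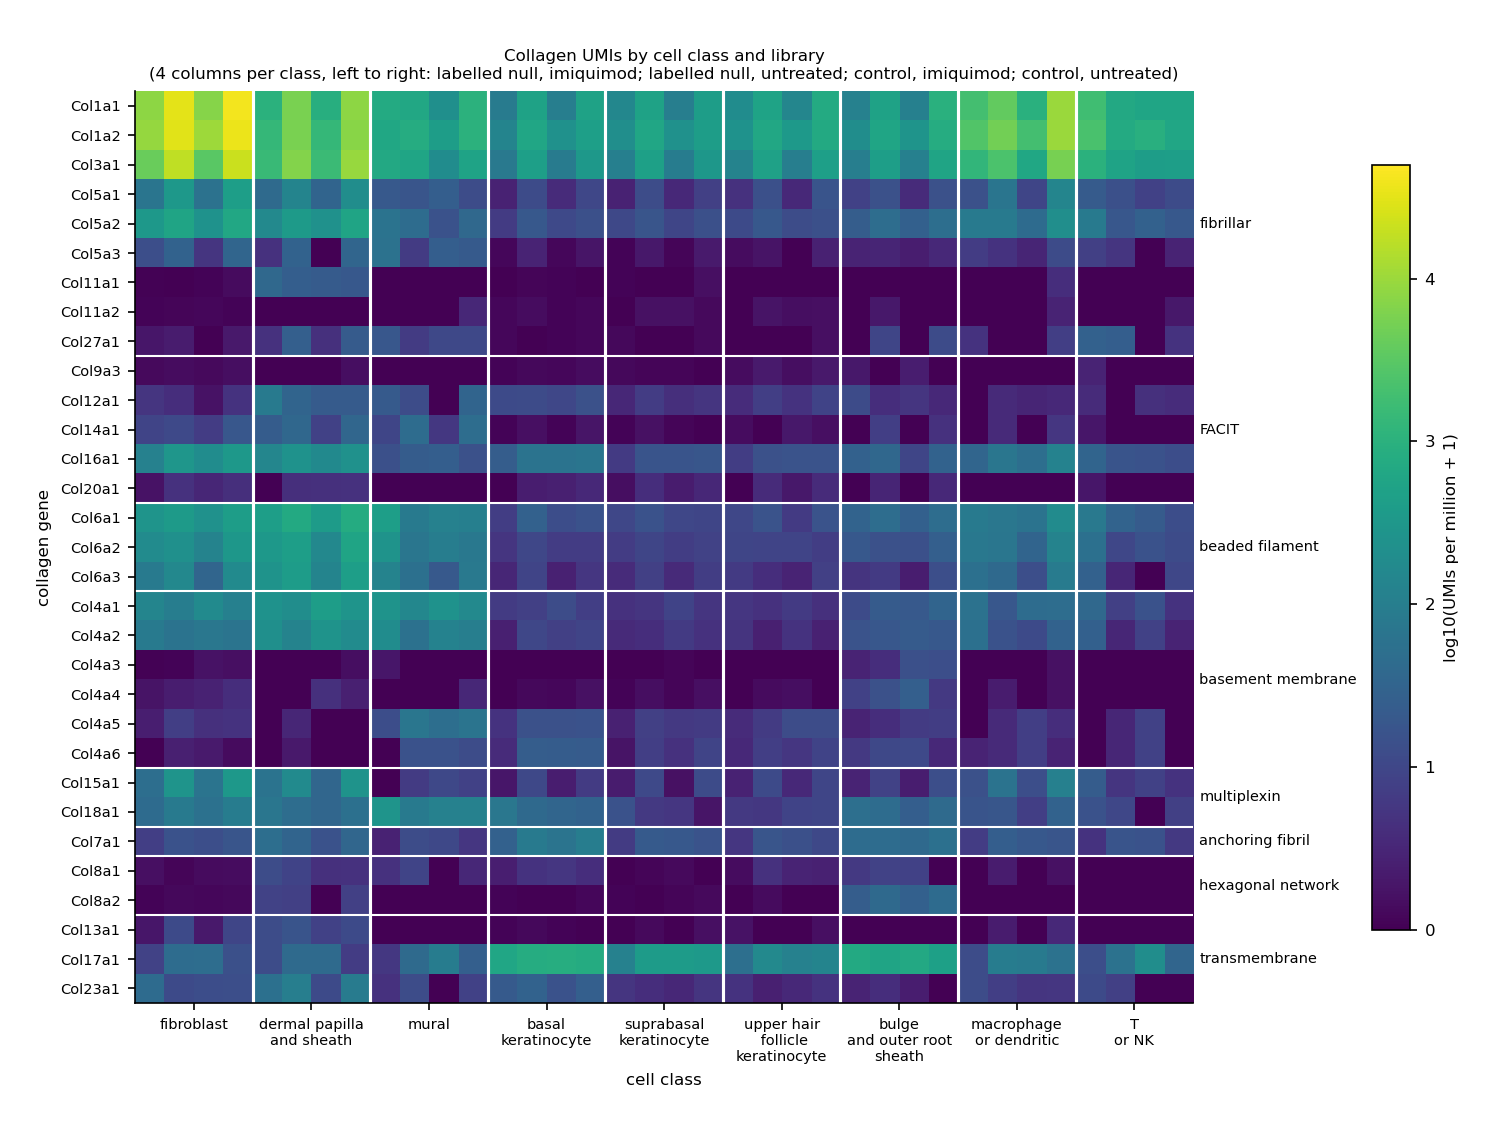
Collagen levels by cell class and library, as log10 of CPM plus 1. Within each class the columns run from the null-labelled IMQ, through the null-labelled untreated and the control IMQ, to the control untreated library. Fibrillar chains fill the fibroblast columns, and Col17a1 fills the keratinocyte columns.

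Collagens took 2.27% of fibroblast UMIs in the null-labelled IMQ library, 8.40% in the null-labelled untreated, 2.19% in the control IMQ and 10.2% in the control untreated library. The imiquimod share was 3.70-fold lower among null-labelled and 4.67-fold lower among control fibroblasts. Between the imiquimod libraries the null-labelled share was 1.04 times the control share, and between the untreated libraries it was 0.822 times. Without the 2494 cells named from their own library, the 558 other null-labelled IMQ fibroblasts gave 2.30%. With 1 library per group these differences have no replicate check, and the intervals given here cover counting error only. A CPM is a share of the RNA captured from a class, so it does not tell less collagen RNA from more of other RNA. The median fibroblast had 8086 UMIs in the null-labelled IMQ, 6480 in the null-labelled untreated, 4486 in the control IMQ and 7132 in the control untreated library.

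The lower share ran through nearly the whole fibroblast population. The median share of collagen per fibroblast was 2.02% in the null-labelled IMQ library, with the 5th and 95th percentiles at 0.547% and 4.73%, against 8.10% (3.35% to 13.5%) in the null-labelled untreated library. It was 1.72% (0.362% to 5.11%) in the control IMQ library, against 10.0% (4.56% to 15.3%) in the control untreated library. Cells under 5% made up 96.4% of fibroblasts in the null-labelled IMQ and 14.4% in the null-labelled untreated library, and 94.6% in the control IMQ and 6.39% in the control untreated library. By cluster, the collagen share was 2.26% and 2.29% in the 2 clusters of null-labelled IMQ fibroblasts and 2.19% in that of control IMQ fibroblasts. In the 4 clusters of untreated fibroblasts it lay between 6.45% and 9.11% in the null-labelled library and between 8.58% and 11.2% in the control library, with the lowest share in the Gpx3 cluster of each.

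**Figure D2:**
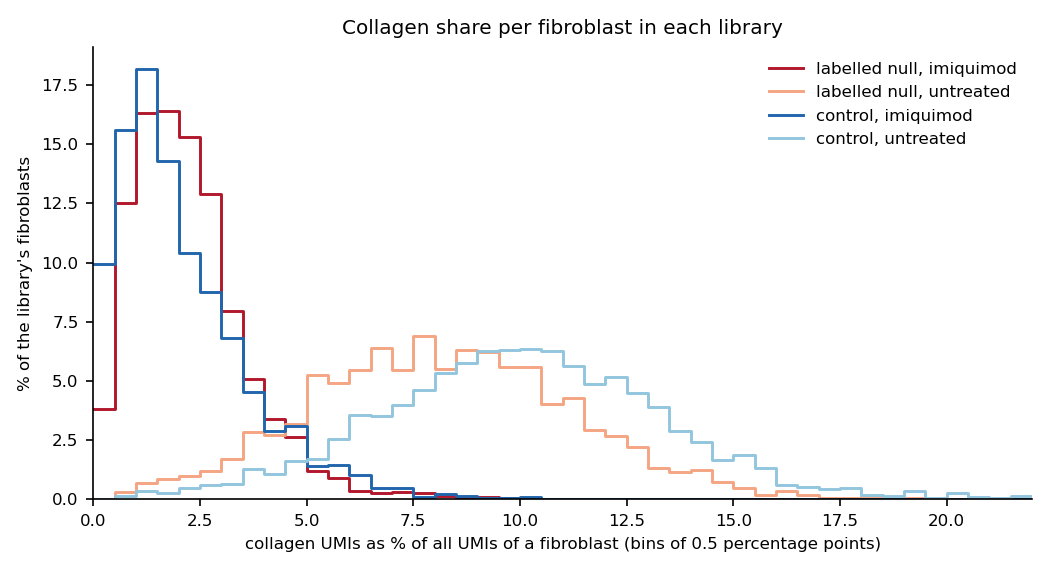
Share of each fibroblast's UMIs that came from the 44 collagen genes, in percent, as the fraction of a library's fibroblasts per bin of 0.5 percentage points. The imiquimod libraries peak near their medians of 2.02% (null-labelled) and 1.72% (control), the untreated libraries near 8.10% (null-labelled) and 10.0% (control).

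A member was counted as higher or lower when it had at least 20 UMIs over both libraries, differed by at least 1.5-fold and had a 95% counting interval on one side of 1. Between null-labelled IMQ and null-labelled untreated fibroblasts, 15 of 24 measured members were lower, against 26.2% of all genes, and 1 was higher, against 10.3%. Between control IMQ and control untreated fibroblasts, 17 of 25 were lower, against 16.2% of all genes, and 3 were higher, against 19.5%. The median log2 ratio of the members was -1.06 among null-labelled fibroblasts, where the median of all genes was -0.20, and -1.26 among control fibroblasts, where it was 0.05. Scaling by TMM factors put the all-gene median of the null-labelled pair at 0.05 and left 14 members lower and 4 higher.

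Of 7 measured fibrillar collagens, 6 were lower after imiquimod among null-labelled fibroblasts (median log2 ratio -1.79) and 7 among control fibroblasts (-2.74). Over all genes 26.2% were lower in the null-labelled and 16.2% in the control pair. Col1a1 stood at 8059 CPM in the null-labelled IMQ, 32400 in the null-labelled untreated, 6872 in the control IMQ and 41529 in the control untreated library. It was 4.02-fold lower after imiquimod among null-labelled fibroblasts (95% counting interval 4.0 to 4.04) and 6.04-fold lower among control fibroblasts (6.0 to 6.09). Col1a2 stood at 9032 CPM in null-labelled IMQ, 31205 in null-labelled untreated, 10443 in control IMQ and 36295 in control untreated cells. Col1a2 was 3.45-fold lower among null-labelled fibroblasts (3.44 to 3.47) and 3.48-fold lower among control fibroblasts (3.45 to 3.50). Both imiquimod libraries were low for both chains, yet not by the same factor. Col1a1 UMIs per Col1a2 UMI were 0.892 in the null-labelled IMQ, 1.04 in the null-labelled untreated, 0.658 in the control IMQ and 1.14 in the control untreated library. The collagen I molecule is built of 2 chains from Col1a1 and 1 from Col1a2.

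Col3a1 stood at 4164 CPM in the null-labelled IMQ, 17786 in the null-labelled untreated, 3194 in the control IMQ and 21350 in the control untreated library, 4.27-fold lower among null-labelled fibroblasts (4.24 to 4.30) and 6.68-fold lower among control fibroblasts (6.61 to 6.76). Collagen V regulates the width of collagen I fibrils, and its chains were unequally low. Col5a1 had 67.2 CPM in the null-labelled IMQ, 326 in the null-labelled untreated, 57.1 in the control IMQ and 437 in the control untreated library. It was 4.85-fold lower among null-labelled (4.57 to 5.14) and 7.65-fold lower among control fibroblasts (7.03 to 8.33). Col5a2, its partner chain, had 316 CPM in null-labelled IMQ, 558 in null-labelled untreated, 252 in control IMQ and 644 in control untreated cells, 1.77-fold lower in the null-labelled pair (1.71 to 1.83) and 2.55-fold lower in the control pair (2.45 to 2.67). Col5a1 UMIs per Col5a2 UMI were thus 0.213 in the null-labelled IMQ and 0.583 in the null-labelled untreated library, and 0.227 in the control IMQ and 0.679 in the control untreated library. Col5a3, a rarer collagen V chain, had 12.3 CPM in null-labelled IMQ, 29.2 in null-labelled untreated, 4.41 in control IMQ and 33.7 in control untreated cells, 2.37-fold lower among null-labelled and 7.64-fold lower among control fibroblasts. Col27a1, a fibrillar chain best known from cartilage, had 0 UMIs in control IMQ against 23 in control untreated fibroblasts, at least 3.87-fold lower when 3 UMIs were allowed for the zero.

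**Figure D3:**
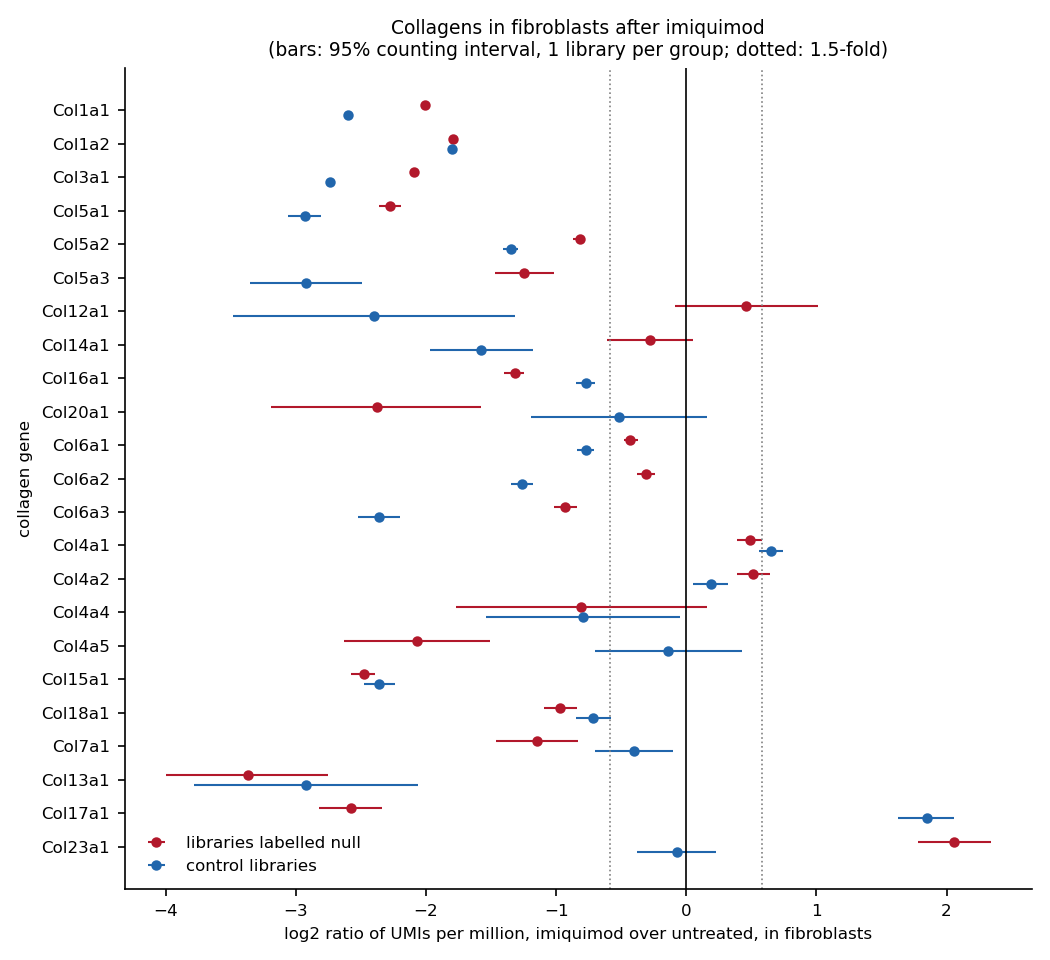
Log2 ratio of imiquimod over untreated fibroblasts for 23 collagens, null-labelled libraries in red and control libraries in blue, with 95% counting intervals and dotted lines at 1.5-fold. Col1a1, Col1a2, Col3a1 and the collagen V chains lie left of the lower line in both pairs, and Col23a1 and Col17a1 part in direction or size between the pairs.

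Collagen VI forms beaded filaments around cells from chains of Col6a1, Col6a2 and Col6a3. Of 3 measured members, 1 was lower among null-labelled fibroblasts, against 26.2% of all genes, and 3 among control fibroblasts, against 16.2%. The null-labelled count is near the all-gene share. Col6a1 stood at 265 CPM in the null-labelled IMQ, 357 in the null-labelled untreated, 237 in the control IMQ and 406 in the control untreated library, 1.35-fold lower in the null-labelled pair (1.29 to 1.4) and 1.71-fold lower in the control pair (1.63 to 1.79). Col6a3 stood at 81.4 CPM in null-labelled IMQ, 155 in null-labelled untreated, 33.8 in control IMQ and 174 in control untreated cells, 1.91-fold lower (1.79 to 2.03) among null-labelled and 5.15-fold lower (4.61 to 5.77) among control fibroblasts. Control imiquimod fibroblasts were the lowest for each of these chains, and their Col6a3 UMIs per Col6a1 UMI were 0.143, against 0.307 in the null-labelled IMQ, 0.435 in the null-labelled untreated and 0.429 in the control untreated library. Col6a2 was 1.24-fold lower among null-labelled and 2.40-fold lower among control fibroblasts.

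The multiplexins, proteoglycan-like collagens of basement membrane zones, were lower in both pairs. Col15a1 had 48.1 CPM in the null-labelled IMQ, 269 in the null-labelled untreated, 63.0 in the control IMQ and 323 in the control untreated library. It was 5.59-fold lower among null-labelled (5.23 to 5.98) and 5.13-fold lower among control fibroblasts (4.73 to 5.58). Col18a1, the source of the fragment endostatin, was 1.95-fold lower among null-labelled (1.79 to 2.13) and 1.64-fold lower among control fibroblasts (1.49 to 1.81).

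Of 4 measured FACIT collagens, which decorate fibril surfaces, 2 were lower among null-labelled (26.2% of all genes) and 3 among control fibroblasts (16.2%). Col16a1 had 117 CPM in the null-labelled IMQ, 292 in the null-labelled untreated, 189 in the control IMQ and 324 in the control untreated library, 2.50-fold lower in the null-labelled pair (2.38 to 2.63) and 1.71-fold lower in the control pair (1.63 to 1.80). It was lowest in the null-labelled IMQ library. Col12a1 and Col14a1, which link fibrils to the surrounding matrix, differed between the pairs. Col12a1 had 4.30 CPM in null-labelled IMQ, 3.09 in null-labelled untreated, 0.687 in control IMQ and 3.86 in control untreated cells, 5.63-fold lower among control fibroblasts (2.61 to 14.5), while the null-labelled ratio was 1.39 (0.941 to 2.1). With libraries clustered separately, Col12a1 had a log2 ratio of -0.78 in the control pair and was no longer counted as lower, and it was counted as higher in the null-labelled pair, at 0.77. That setting named 1511 control untreated fibroblasts, against 2864 in the main one. Control untreated clusters led by Ccl11 (572 cells), Gpx3 (525) and Ccl7 (440) stayed unnamed there. Col14a1 had 8.15 CPM in null-labelled IMQ, 9.89 in null-labelled untreated, 5.89 in control IMQ and 17.7 in control untreated cells, 3.01-fold lower among control fibroblasts (2.28 to 4.02), with a null-labelled log2 ratio of -0.28. Among the less abundant members, Col20a1 was 5.31-fold lower among null-labelled fibroblasts (2.95 to 9.96), and Col13a1, a transmembrane collagen of cell junctions, was 10.5-fold lower there (6.75 to 17.1) and 7.90-fold lower among control fibroblasts (4.31 to 16.1).

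The collagen IV chains Col4a1 and Col4a2, which form the network of every basement membrane, were not lower. Over all measured collagen IV chains, 0 of 4 were higher (10.3% of all genes) and 1 of 4 lower (26.2%) in the null-labelled pair. In the control pair 2 of 5 were higher (19.5%) and 1 of 5 lower (16.2%). The counts of lower chains are near the all-gene shares. Col4a1 stood at 137 CPM in the null-labelled IMQ, 97.9 in the null-labelled untreated, 175 in the control IMQ and 112 in the control untreated library, 1.4-fold higher after imiquimod among null-labelled (1.31 to 1.5) and 1.57-fold higher among control fibroblasts (1.47 to 1.67). Col4a2, which shares a bidirectional promoter with it, stood at 86.6 CPM in null-labelled IMQ, 60.6 in null-labelled untreated, 71.1 in control IMQ and 62.5 in control untreated cells, 1.43-fold higher in the null-labelled and 1.14-fold higher in the control pair. The annotated starts of the pair overlap on opposite strands of chromosome 8, while 3′ tags come from their far ends. Col7a1, the anchoring fibril chain, was 2.21-fold lower among null-labelled fibroblasts (1.77 to 2.78) and had a log2 ratio of -0.40 among control fibroblasts, or -1.14 and counted as lower with libraries clustered separately.

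Col23a1, a transmembrane collagen on chromosome 11 from 51289920 to 51583918 on the plus strand, was the single member counted as higher among null-labelled IMQ fibroblasts. It had 42.5 CPM in the null-labelled IMQ, 10.2 in the null-labelled untreated, 12.1 in the control IMQ and 12.7 in the control untreated library. The null-labelled IMQ library thus stood alone, 4.18-fold higher than null-labelled untreated (3.45 to 5.12) and 3.52-fold higher than control IMQ (2.92 to 4.28), while the control log2 ratio was -0.07 (-0.38 to 0.23), or -0.78 and counted as lower with libraries clustered separately. Fibroblasts with a Col23a1 UMI made up 20.8% in the null-labelled IMQ, 5.29% in the null-labelled untreated, 4.49% in the control IMQ and 5.83% in the control untreated library. After thinning each cell to 1000 UMIs the share was 3.70% in the null-labelled IMQ, 1.19% in the null-labelled untreated, 1.33% in the control IMQ and 1.19% in the control untreated library. In T and NK cells, taken as a class that should lack the gene, the unthinned share was 2.80% in the null-labelled IMQ (median 4024 UMIs per cell), 1.75% in the null-labelled untreated (2327), 0 of 80 cells in the control IMQ (2464; exact upper limit 4.51%) and 0 of 327 cells in the control untreated library (2648; 1.12%). The T and NK cells of the null-labelled IMQ library included 36 named from clustering that library alone. Without these the collagen share of the class was lower, at 0.0656%, and its Col23a1 share without them is not given here. The fibroblast excess of Col23a1 lay in the cluster named from its own library, with 50.3 CPM, whereas the other null-labelled IMQ cluster (led by Plac8 and Ifitm1) had 4.91 CPM. Without the cells named from their own library the log2 ratio to null-labelled untreated fibroblasts was -1.01, and to control IMQ fibroblasts -1.28. Among the clusters of untreated fibroblasts, Col23a1 was highest in the F13a1 cluster, with 36.9 CPM in the null-labelled and 48.2 CPM in the control library.

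Col12a1 and Col14a1 followed clusters as well. Col12a1 had 17.1 CPM in the Plac8 cluster and 1.60 CPM in the Saa1 cluster of null-labelled IMQ fibroblasts, 0.693 CPM in the control IMQ cluster, and in the untreated Gpx3 cluster 15.7 CPM in the null-labelled and 19.8 CPM in the control library. Col14a1 had 31.8 CPM in the Plac8 cluster, 3.25 CPM in the Saa1 cluster and 5.74 CPM in the control IMQ cluster, and in the untreated Gpx3 cluster 65.5 CPM in the null-labelled and 62.5 CPM in the control library. With the Saa1 cluster left out, the null-labelled log2 ratio after imiquimod was 2.46 for Col12a1 and 1.67 for Col14a1. It was -1.68 for Col5a1 and -4.86 for Col13a1. Without that cluster Col1a1, Col1a2, Col3a1, Col5a1 and Col5a3 were still counted as lower in the null-labelled pair and Col5a2 was not, while Col27a1 was counted as higher, with a log2 ratio of 1.77.

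Col17a1, the transmembrane collagen of keratinocyte hemidesmosomes, was set against basal keratins in fibroblasts. Krt14 had 243 CPM in null-labelled IMQ, 321 in null-labelled untreated, 405 in control IMQ and 78.2 in control untreated fibroblasts. Krt15 had 27.3 CPM in null-labelled IMQ, 357 in null-labelled untreated, 357 in control IMQ and 102 in control untreated fibroblasts. Col17a1 had 7.47 CPM in the null-labelled IMQ, 44.7 in the null-labelled untreated, 46.7 in the control IMQ and 13.0 in the control untreated library. Krt5, a keratin of basal keratinocytes, had 82.6 CPM in null-labelled IMQ, 207 in null-labelled untreated, 166 in control IMQ and 59.2 in control untreated fibroblasts. Krt5 and Krt14 were thus higher in null-labelled IMQ than in control untreated fibroblasts, while Col17a1 and Krt15 were lower. The Col17a1 level was 1.26% of that in basal keratinocytes in the null-labelled IMQ, 5.49% in the null-labelled untreated, 5.49% in the control IMQ and 1.65% in the control untreated library, which was 1.21 to 1.47 times the median percentage for Krt5, Krt14 and Krt15 in every library. Col4a6, a collagen IV chain of epithelia, stood at 1.20 to 1.76 times that median. These values are near the floor. Col4a6 was detected in 1 null-labelled IMQ, 17 null-labelled untreated, 12 control IMQ and 8 control untreated fibroblasts. Col17a1 and Col4a6 are 2 of the 3 members counted as higher in control IMQ fibroblasts, and the part of keratinocyte RNA in those counts was not tested.

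Between the untreated libraries few members differed. Of 25 measured in fibroblasts, 3 were higher in the null-labelled library, against 7.46% of all genes, and 2 were lower, against 2.44%. The higher ones were Col17a1, Col4a6 and Col4a5, a collagen IV chain of epithelia, and the lower ones were Col14a1, 1.79-fold (1.44 to 2.23), and Col4a4, 2.36-fold (1.33 to 4.46). No fibrillar chain was among them: their median log2 ratio was -0.22, and Col1a1 was 1.28-fold lower in the null-labelled untreated library. With libraries clustered separately 6 members were lower, Col5a1 and Col11a1 among them. That setting compared 1511 control untreated fibroblasts in place of 2864, as several clusters of that library stayed unnamed.

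Between the imiquimod libraries, 5 of 24 members were higher in null-labelled fibroblasts, against 10.1% of all genes, and 6 were lower, against 24.8%, a share close to that of all genes. Under TMM factors 8 were higher and 4 lower, and Col16a1 and Col4a4 were no longer counted as lower. The higher members were Col23a1, Col6a3, 2.40-fold (2.14 to 2.70), Col5a3, 2.78-fold (2.03 to 3.90), Col12a1, 6.26-fold (2.93 to 15.9), and Col27a1, with 24 UMIs against 0 and at least 3.27-fold. The lower members were Col16a1, 1.62-fold (1.53 to 1.72), Col17a1, 6.25-fold, Col7a1, 1.92-fold (1.5 to 2.44), Col20a1, 3.31-fold, and the collagen IV chains Col4a4 and Col4a5, 2.31-fold each. The collagen I and III chains lay within 1.5-fold, with log2 ratios of 0.23 for Col1a1, -0.21 for Col1a2 and 0.38 for Col3a1.

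The log2 effect of imiquimod in the null-labelled minus that in the control pair was 0.01 for Col1a2 (counting interval -0.00 to 0.02) and -0.12 for Col15a1 (-0.27 to 0.03). It was positive for Col1a1 at 0.59 (0.57 to 0.60), Col3a1 at 0.65 (0.63 to 0.67), Col6a3 at 1.43 (1.25 to 1.61), Col5a3 at 1.67 (1.19 to 2.16), Col23a1 at 2.13 (1.72 to 2.55) and Col12a1 at 2.86 (1.65 to 4.07). It was negative for Col16a1 at -0.55 and for Col17a1 at -4.42 (-4.75 to -4.10). With 1 library per group, genotype label and library cannot be told apart in these differences.

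The genes that build, trim, bind and break down collagen were counted in fibroblasts from 7 lists. Over all genes 26.2% were lower and 10.3% higher in the null-labelled pair, and 16.2% lower and 19.5% higher in the control pair. Of 21 genes for chain folding and secretion, 10 of 19 measured were lower and 1 higher among null-labelled fibroblasts after imiquimod (median log2 ratio -0.73), and 13 of 18 lower and 1 higher among control fibroblasts (-1.25). P4ha2, a prolyl hydroxylase subunit, stood at 36.3 CPM in the null-labelled IMQ, 200 in the null-labelled untreated, 28.2 in the control IMQ and 301 in the control untreated library. Serpinh1, the collagen chaperone HSP47, stood at 1194 CPM in null-labelled IMQ, 2140 in null-labelled untreated, 406 in control IMQ and 3047 in control untreated cells. Both were lowest in control IMQ fibroblasts, and the log2 ratio for Serpinh1 was -0.84 in the null-labelled pair and -2.91 in the control pair. Fkbp14, a prolyl isomerase, had a log2 ratio of -1.66 in the null-labelled and -3.33 in the control pair.

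Of 8 genes of proline supply, 4 were lower (26.2% of all genes) and 1 higher (10.3%) among null-labelled fibroblasts, and 5 lower (16.2%) and 1 higher (19.5%) among control fibroblasts. Pycr1, the enzyme of the last step to proline, had the lowest log2 ratios of the pathway genes named here, -4.02 in the null-labelled and -5.82 in the control pair, with 2.05 CPM in the null-labelled IMQ, 33.4 in the null-labelled untreated, 0.981 in the control IMQ and 58.0 in the control untreated library. Of 12 measured genes for cleavage and cross-linking, 7 were lower and 2 higher among null-labelled and 9 lower and 2 higher among control fibroblasts, set against the same shares of all genes. The counts of higher genes in these lists were close to those shares in the control pair. Within that list Loxl1, a lysyl oxidase, stood at 145 CPM in null-labelled IMQ, 129 in null-labelled untreated, 39.8 in control IMQ and 157 in control untreated cells, low in the control IMQ library alone. Lox, the founding lysyl oxidase, was high there instead, with 65.8 CPM in the null-labelled IMQ, 73.7 in the null-labelled untreated, 190 in the control IMQ and 102 in the control untreated library. Tgm2, a transglutaminase, had 16.1 CPM in null-labelled IMQ, 4.59 in null-labelled untreated, 2.55 in control IMQ and 6.69 in control untreated cells, with log2 ratios of 1.80 in the null-labelled and -1.37 in the control pair.

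Of 12 fibril-binding proteoglycans and glycoproteins, 7 of 12 measured were lower (26.2% of all genes) and 2 higher (10.3%) among null-labelled fibroblasts, and 4 of 11 lower (16.2%) and 2 higher (19.5%) among control fibroblasts, the last near the all-gene share. Fn1, fibronectin, had 90.4 CPM in the null-labelled IMQ, 406 in the null-labelled untreated, 146 in the control IMQ and 519 in the control untreated library. Prelp, a leucine-rich repeat protein of basement membranes, was high after imiquimod in both pairs, with 539 CPM in null-labelled IMQ, 244 in null-labelled untreated, 345 in control IMQ and 193 in control untreated cells. Of 8 measured collagen receptors, 3 were lower and 0 higher among null-labelled and 2 lower and 1 higher among control fibroblasts, which for 8 genes is near the shares of all genes. The 1 higher was Ddr2, a receptor kinase for fibrillar collagen, with 105 CPM in null-labelled IMQ, 85.4 in null-labelled untreated, 164 in control IMQ and 76.9 in control untreated cells.

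Of 10 measured genes of collagen degradation, 4 were higher (10.3% of all genes) and 1 lower (26.2%) among null-labelled fibroblasts (median log2 ratio 0.41), and of 9, 2 were higher (19.5%) and 2 lower (16.2%) among control fibroblasts (0.31), near the all-gene shares in the control pair. Timp1, a metalloproteinase inhibitor, stood at 768 CPM in the null-labelled IMQ, 40.8 in the null-labelled untreated, 78.3 in the control IMQ and 33.3 in the control untreated library, and it was among the genes that defined the Saa1 cluster. Mmp3, stromelysin, stood at 2265 CPM in null-labelled IMQ, 1303 in null-labelled untreated, 477 in control IMQ and 1278 in control untreated cells, high in the null-labelled and low in the control IMQ library. Of 17 genes of the TGF-beta pathway, a driver of collagen transcription, 4 were higher and 5 lower among null-labelled and 6 higher and 5 lower among control fibroblasts, of which the 5 lower in the null-labelled pair are near the 26.2% of all genes. Ctgf, a target of that pathway, had 47.3 CPM in null-labelled IMQ, 11.2 in null-labelled untreated, 129 in control IMQ and 14.7 in control untreated cells.

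Cells named dermal papilla and dermal sheath, after the mesenchyme of the hair follicle, had a share of collagen UMIs of 0.616% in the null-labelled IMQ, 2.14% in the null-labelled untreated, 0.577% in the control IMQ and 2.83% in the control untreated library. These shares came from 58 null-labelled IMQ, 208 null-labelled untreated, 109 control IMQ and 420 control untreated cells. Their cluster, led by Crabp1 and Igfbp3, took the name from 4 of 10 listed markers. No cluster took it when either imiquimod library was clustered alone. Clusters with Igfbp3 and Dkk2 among their leading genes were named fibroblasts there, so the name is uncertain. Of 21 members measured in the null-labelled pair, 12 were lower after imiquimod, against 7.04% of all genes, and 2 higher, against 8.60%. Of 22 in the control pair, 13 were lower, against 10.4%, and 2 higher, against 11.0%. Col3a1 had 1552 CPM in the null-labelled IMQ, 6765 in the null-labelled untreated, 1568 in the control IMQ and 9276 in the control untreated library, 4.36-fold lower in the null-labelled and 5.92-fold lower in the control pair. The median level of Col1a1, Col1a2 and Col3a1 in these cells was 12.7% to 20.0% of that in fibroblasts over the libraries, while Col3a1 alone reached 37.3% to 49.1%.

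Col6a1 in the same cells had 428 CPM in the null-labelled IMQ, 725 in the null-labelled untreated, 385 in the control IMQ and 783 in the control untreated library, and Col6a3 had 263 CPM in null-labelled IMQ, 388 in null-labelled untreated, 133 in control IMQ and 428 in control untreated cells. Col23a1 had 52.6 CPM in null-labelled IMQ, 101 in null-labelled untreated, 10.5 in control IMQ and 87.7 in control untreated cells, 1.91-fold lower in the null-labelled pair (1.08 to 3.64) and 8.36-fold lower in the control pair (2.81 to 40.9). With doublets kept its log2 ratio was -2.91 in the null-labelled and -3.46 in the control pair, and with collagen rows kept in the clustering -2.98 in the null-labelled and -3.79 in the control pair. In the class named papilla and sheath Col23a1 was thus low after imiquimod in both pairs, while in null-labelled fibroblasts it was high. Clustered alone, the null-labelled IMQ library had a fibroblast cluster of 271 cells led by F13a1, with Crabp1 among its leading genes. Crabp1 also led the papilla and sheath cluster. The part of class boundaries in this contrast was not tested. In papilla and sheath cells of the control pair, Col4a1, 1.56-fold (1.27 to 1.91), and Col17a1 were counted as higher. In those of the null-labelled pair, Col4a2, 1.75-fold (1.26 to 2.42), and Col12a1, 2.64-fold (1.44 to 4.78), were counted as higher.

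In mural cells, the pericytes and smooth muscle of vessel walls, several collagens stood high in the null-labelled IMQ library. Its 232 mural cells had a collagen share of 0.384%, against 0.287% in 84 null-labelled untreated, 0.181% in 66 control IMQ and 0.357% in 106 control untreated cells. In the null-labelled pair 7 of 18 members were higher, against 9.24% of all genes, and 3 were lower, against 10.4% (median log2 ratio 0.57, and -0.07 over all genes). Col6a1 had 428 CPM in the null-labelled IMQ, 86.5 in the null-labelled untreated, 115 in the control IMQ and 104 in the control untreated library. It was 4.95-fold higher in the null-labelled pair (3.44 to 7.36), with a control log2 ratio of 0.16. Col6a2 had 261 CPM in null-labelled IMQ, 69.8 in null-labelled untreated, 96.2 in control IMQ and 74.1 in control untreated cells, 3.74-fold higher (2.48 to 5.87), and Col18a1 had 267 CPM in null-labelled IMQ, 86.5 in null-labelled untreated, 115 in control IMQ and 116 in control untreated cells, 3.09-fold higher (2.13 to 4.63).

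Col4a2 in mural cells had 190 CPM in the null-labelled IMQ, 55.8 in the null-labelled untreated, 120 in the control IMQ and 102 in the control untreated library, 3.40-fold higher in the null-labelled pair (2.14 to 5.68), a log2 ratio of 1.73 that was 2.35 under a stricter cell filter (at least 500 genes and at most 5% mitochondrial UMIs). Col4a1 had 260 CPM in null-labelled IMQ, 151 in null-labelled untreated, 245 in control IMQ and 164 in control untreated cells, 1.72-fold higher (1.28 to 2.35), with a similar control log2 ratio of 0.58. Col6a3 had 124 CPM in null-labelled IMQ, 53.0 in null-labelled untreated, 19.2 in control IMQ and 78.7 in control untreated cells, 2.34-fold higher in the null-labelled pair (1.44 to 4.01) and 4.09-fold lower in the control pair (1.46 to 15.9, from 4 UMIs in control IMQ and 34 in control untreated cells). Col4a5 went the other way in the null-labelled pair, with 12.1 CPM in null-labelled IMQ, 69.8 in null-labelled untreated, 48.1 in control IMQ and 62.5 in control untreated cells, 5.75-fold lower (2.83 to 12.2). Col5a3 was the other member counted as higher and Col14a1 and Col17a1 the others counted as lower. The summed fibroblast markers in mural cells were 3314 CPM in the null-labelled IMQ, 2335 in the null-labelled untreated, 4192 in the control IMQ and 2976 in the control untreated library, and the 11 mural markers summed to 16964 CPM in null-labelled IMQ, 20416 in null-labelled untreated, 17587 in control IMQ and 24303 in control untreated cells. Their part in these differences was not tested. The log2 effect in the null-labelled minus the control pair was 2.12 for Col6a1 (1.24 to 3.00), 3.08 for Col6a3 (1.51 to 4.65), 1.59 for Col18a1 (0.72 to 2.47) and 0.19 for Col4a1 (-0.47 to 0.86).

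**Figure D4:**
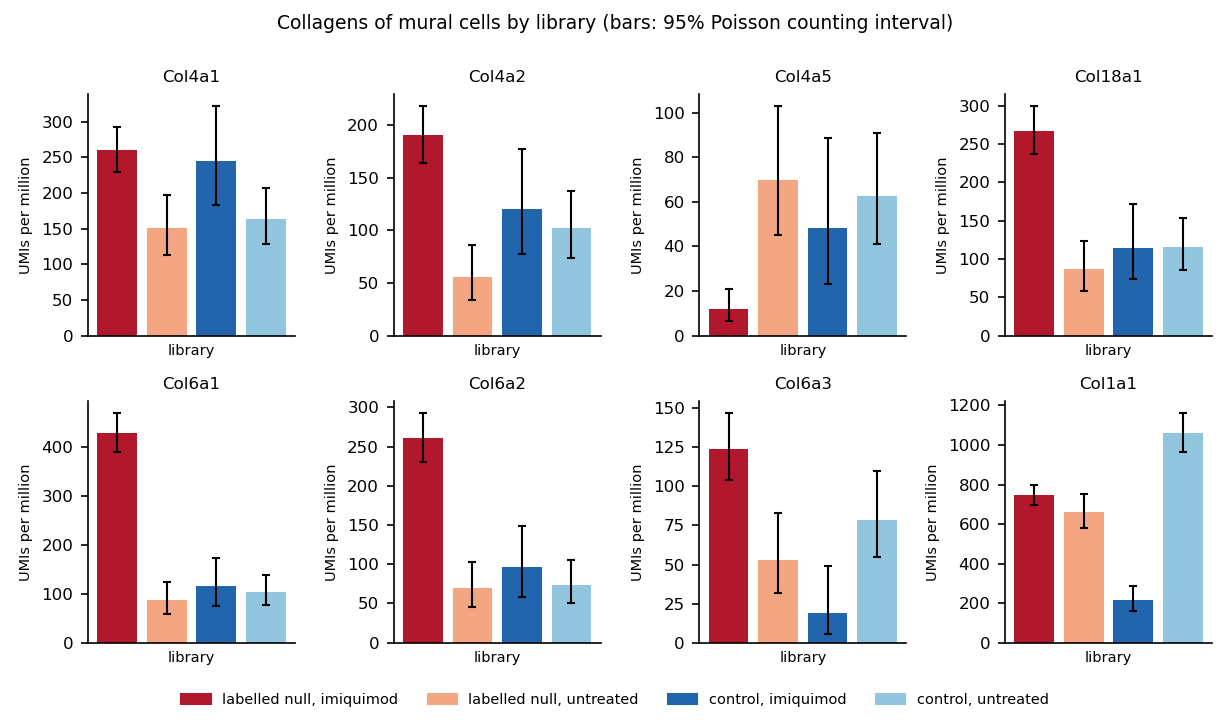
CPM in mural cells for 8 collagens, with bars for the null-labelled IMQ, null-labelled untreated, control IMQ and control untreated libraries from left to right and exact Poisson 95% intervals (counting error only). Col6a1 reaches 428 in the null-labelled IMQ library, against 86.5 to 115 in the others, and Col4a5 is lowest there at 12.1.

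Basal keratinocytes express collagens of the basement membrane zone. Of 22 members, 9 stood in every library at 3 or more times the free RNA level, set as the median percentage of the fibroblast CPM that Col1a1, Col1a2 and Col3a1 reached in the class (1.26% to 2.31%): Col17a1, Col7a1, Col4a5, Col4a6, Col8a1, Col12a1, Col16a1, Col18a1 and Col23a1. Several of them were low in the null-labelled IMQ library, where 462 of 493 basal cells took their name from clustering that library alone and the median cell had 15642 UMIs, against 5178 in the null-labelled untreated, 5079 in the control IMQ and 4610 in the control untreated library. Of 20 measured members, 15 were lower than in null-labelled untreated cells, against 29.8% of all genes, and 1 higher, against 17.3%. Set against control IMQ cells, 10 of 20 were lower, against 23.7%, and 1 higher, against 21.8%. These counts include fibrillar chains at the level of free RNA. Basal cells of the other libraries also lay in different clusters: 914 control IMQ cells were in a cluster led by Il22ra2, and 660 null-labelled untreated and 452 control untreated cells in one led by Fcgbp and Serpinb2. In the joint clustering, unnamed keratinocyte clusters held 1058 null-labelled IMQ cells led by BC100530, Stfa3 and S100a8, and 83 led by Sostdc1. The first was weighed for the suprabasal name and the second for the basal name, which their leading genes went against. Krt15 in basal cells was 766 CPM in null-labelled IMQ, against 6038 to 9108 elsewhere. Krt5 (7975 against 3839 to 5343) and Krt14 (24018 against 9520 to 11106) were highest there. Clustered alone, the null-labelled IMQ library had basal clusters led by Cdc20 and Cenpa (374 cells) and by Hist1h2ap and Epgn (102 cells). Among the other libraries, a basal cluster led by Hist1h2ap and Ube2c held 106 null-labelled untreated, 110 control IMQ and 91 control untreated cells. The part of cluster make-up in the basal differences was not tested.

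Col17a1 had 594 CPM in the null-labelled IMQ, 814 in the null-labelled untreated, 851 in the control IMQ and 787 in the control untreated basal cells, lowest in the null-labelled IMQ library but under 1.5-fold from any other. Col7a1 had 27.9 CPM in null-labelled IMQ, 83.8 in null-labelled untreated, 62.5 in control IMQ and 98.1 in control untreated cells, 3.00-fold lower in the null-labelled (2.58 to 3.50) and 1.57-fold lower in the control pair (1.38 to 1.78). Col16a1 had 22.9 CPM in null-labelled IMQ, 61.7 in null-labelled untreated, 60.2 in control IMQ and 67.5 in control untreated cells, 2.69-fold lower in the null-labelled pair (2.27 to 3.19). Col7a1 was thus low in both imiquimod libraries and Col16a1 in the null-labelled one. The epidermal collagen IV chains, which lie head to head on the X chromosome, were low in the null-labelled IMQ library by unequal factors. Col4a6 had 2.77 CPM in null-labelled IMQ, 23.3 in null-labelled untreated, 22.7 in control IMQ and 21.5 in control untreated cells, 8.42-fold lower than null-labelled untreated (5.46 to 13.5) and 8.22-fold lower than control IMQ (5.36 to 13.1). Under the stricter cell filter these log2 ratios were -2.45 to null-labelled untreated and -2.26 to control IMQ. Col4a5 had 3.92 CPM in null-labelled IMQ, 13.6 in null-labelled untreated, 13.6 in control IMQ and 14.3 in control untreated cells, 3.48-fold lower than null-labelled untreated (2.33 to 5.31) and 3.48-fold lower than control IMQ (2.36 to 5.26). Col18a1 was the 1 member counted as higher, with 72.1 CPM in null-labelled IMQ, 40.1 in null-labelled untreated, 32.9 in control IMQ and 29.3 in control untreated cells, 1.80-fold over null-labelled untreated (1.56 to 2.08) and 2.19-fold over control IMQ (1.9 to 2.53).

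**Figure D5:**
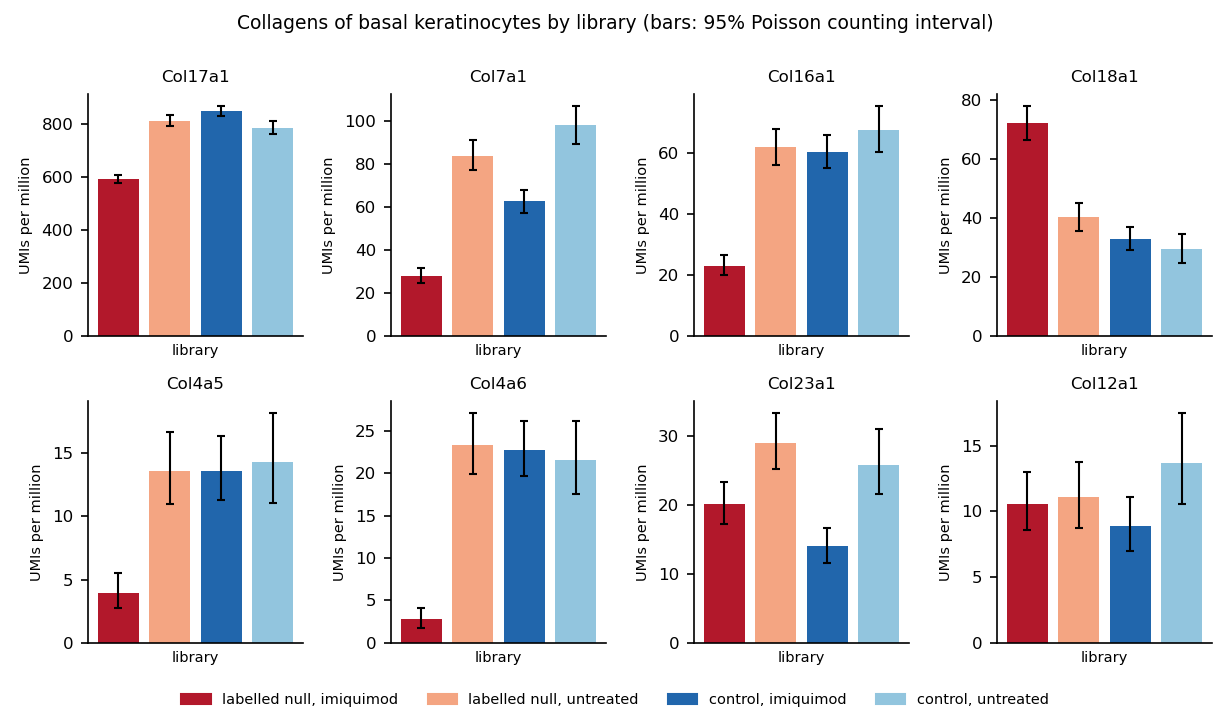
CPM in basal keratinocytes for 8 collagens, with bars for the null-labelled IMQ, null-labelled untreated, control IMQ and control untreated libraries from left to right and exact Poisson 95% intervals (counting error only). Col4a6 is at 2.77 in the null-labelled IMQ library, against 21.5 to 23.3 in the others, while Col18a1 is highest there at 72.1.

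Col23a1 in basal cells was low in the control IMQ library, with 20.1 CPM in the null-labelled IMQ, 29.1 in the null-labelled untreated, 14 in the control IMQ and 25.9 in the control untreated library, 1.85-fold lower in the control pair (1.43 to 2.40). Col12a1 had 10.6 CPM in null-labelled IMQ, 11.1 in null-labelled untreated, 8.86 in control IMQ and 13.7 in control untreated cells, 1.55-fold lower in the control pair (1.09 to 2.18).

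Col17a1 extended into suprabasal cells, with 117 CPM in the null-labelled IMQ, 379 in the null-labelled untreated, 372 in the control IMQ and 339 in the control untreated library, and into upper hair follicle cells, with 51.1 CPM in null-labelled IMQ, 162 in null-labelled untreated, 114 in control IMQ and 131 in control untreated cells. The null-labelled IMQ library was the lowest in both, at a median of 18267 UMIs per suprabasal cell against 6744 to 7772 in the other libraries. Of its 409 suprabasal cells, 375 took their name from clustering that library alone, while most suprabasal cells of the untreated libraries lay in a cluster led by Mt4 and those of the control IMQ library in one led by Krt77. Under the stricter cell filter the log2 ratio of Col17a1 in upper hair follicle cells turned to 0.58 in the null-labelled pair and to 1.20 in the control pair. In bulge and outer root sheath cells the imiquimod library of each pair was instead the higher, by under 1.5-fold, with 709 CPM in the null-labelled IMQ, 557 in the null-labelled untreated, 691 in the control IMQ and 478 in the control untreated library. Bulge cells also held Col8a2, a hexagonal network chain, at 23.0 CPM in null-labelled IMQ, 38.8 in null-labelled untreated, 27.0 in control IMQ and 42.9 in control untreated cells, with counting intervals of the ratio that include 1 in both pairs, and Col7a1 at 44 CPM in null-labelled IMQ, 44.1 in null-labelled untreated, 39.7 in control IMQ and 52.7 in control untreated cells.

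Few collagens in immune classes stood above the free RNA level. Of 17 members in macrophages and dendritic cells only Col7a1 and Col17a1, and of 16 in T and NK cells only Col17a1, stood at 3 or more times the free RNA level in every library. That level was 13.2% to 29.2% of the fibroblast level in macrophages and dendritic cells and 1.64% to 24.5% in T and NK cells. In basal keratinocytes it was 1.26% to 2.31%. Where the level is high, few members can pass. Fibroblast Col17a1 stood near the median keratin percentage of the basal level, so the measure cannot tell Col17a1 of immune cells from keratinocyte RNA. Collagens took 0.559% of UMIs in T and NK cells of the null-labelled IMQ library, against 0.219% in the null-labelled untreated, 0.225% in the control IMQ and 0.176% in the control untreated library. Without 36 cells named from clustering that library alone the null-labelled IMQ share was 0.0656%.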

How the data were processed

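The deposited files held the authors' UMI counts per gene and cell barcode, 27998 genes by 23455 barcodes in 1 aggregated matrix, made with Cell Ranger 2.1.0 on mm10 per the submitters' processing notes. Whether depth was evened between libraries when they were aggregated is not stated in the sources at hand. The barcode suffix gave the library, per the labels. The libraries are single samples, so no p-value was computed, and intervals cover counting error only.

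Cells under 200 genes or over 10% mitochondrial UMIs were dropped, and doublets predicted by Scrublet (expected rate 0.05) were removed: 108 in the null-labelled imiquimod, 71 in the null-labelled untreated, 87 in the control imiquimod and 120 in the control untreated library. In the null-labelled untreated library the caller's own threshold marked under 0.5% of cells, so the median threshold of the other libraries was used there, a choice made after seeing the data. Cells were clustered without collagen rows (scanpy 1.11.5, 2000 variable genes, 30 components, 15 neighbours, leidenalg 0.10.2 at resolution 1). Clusters were named from 23 marker lists, needing at least 3 markers at 2-fold. Cells of unnamed clusters took the name of their cluster when their library was clustered alone (3465 in the null-labelled imiquimod, 477 in the null-labelled untreated, 377 in the control imiquimod and 380 in the control untreated library).

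UMIs were summed over the cells of a class in a library and scaled to 1000000 (CPM). Ratios carry exact conditional binomial 95% intervals (scipy 1.17.1), levels exact Poisson and shares Clopper-Pearson intervals, and log2 ratios add 0.5 counts. The calls of higher and lower were also run on simulated Poisson counts. These hold only the counting error that the intervals assume, so they cannot test spread between libraries. Named members are those with at least 500 UMIs in fibroblasts and of the rest the 3 largest folds each way; in other classes, those above the free RNA level with at least 100 UMIs; and of pathway lists the 2 largest folds each way in a comparison. Other members named were chosen after their values were seen. Genes, lists and classes were chosen with earlier results of these data known. Gene positions are from GENCODE M21 on GRCm38, in which all 44 members matched. Alternatives covered the cell filter, doublets, clustering, naming, scaling, the UMI minimum and the fold.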

Additional observations from a re-analysis of the deposited data

Results flagged for a closer look

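The imiquimod effects on 2 members, in 3 pairings of a member with a cell class, had opposite signs in the null-labelled and the control pair, with 1 library per group, so the differences were not tested over samples. Col17a1 in fibroblasts had a log2 ratio of imiquimod over untreated of -2.58 in the null-labelled pair and 1.85 in the control pair, and keratins differed between these fibroblast libraries too. Col17a1 in T and NK cells had -2.18 in the null-labelled and 2.56 in the control pair, and the control value was 0.83 under a stricter cell filter, 1.39 with collagen rows kept in the clustering and 3.55 with libraries clustered separately. Col6a3, a collagen VI chain, had 1.20 in null-labelled and -1.88 in control mural cells, the control value resting on 4 UMIs in the imiquimod library.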

How the results depend on the processing

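Over 247 member ratios and their alternatives, 2802 values were recomputed, of which 2717 kept their direction. By label 2503 stayed the same, 294 moved and 5 reversed, and 89 differed from the main value by over 1.5 times. Not every change of sign was labelled a reversal. Col17a1 in upper hair follicle cells of the control pair, labelled moved, went from -0.21 to 1.20 under the stricter cell filter. The count of lower members in fibroblasts stayed between 12 and 16 in the null-labelled pair and between 13 and 18 in the control pair. Counts of higher members, which are small, moved. With each library clustered on its own, the control pair had 1 higher member, the null-labelled pair had 2, and the null-labelled untreated library had 6 lower members than the control untreated one. In that setting 1511 control untreated cells were named fibroblasts, against 2864 in the main one. Leaving out the cells named from their own library gave 5 higher members in the null-labelled pair and 9 between the imiquimod libraries, and TMM factors gave 4 and 8. A finer clustering gave 2 higher members in the null-labelled pair, and a 2-fold limit gave 1 lower member between the untreated libraries. Without the cells named from their own library, the log2 ratio of Col23a1 in null-labelled imiquimod fibroblasts was -1.01 to null-labelled untreated and -1.28 to control imiquimod fibroblasts, both reversed. Col5a2 in dermal papilla and sheath cells of the null-labelled pair reversed to 0.42 with doublets kept and to 0.28 with collagen rows kept in the clustering. Col17a1 in upper hair follicle cells of the null-labelled pair reversed to 0.58 under a stricter cell filter. Col1a1 in fibroblasts ranged between -2.1 and -1.75 in the null-labelled pair and between -2.72 and -2.56 in the control pair. For the other reversals the cause was not tested. No paired analysis was possible because each group held 1 library. Members with few UMIs, such as Col27a1, are limited by depth.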

Other observations

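Values of collagens in some smaller classes and in bulge cells are given here, chosen after they were seen. Blood endothelial cells, of which there were 80 in the null-labelled imiquimod, 34 in the null-labelled untreated, 32 in the control imiquimod and 26 in the control untreated library, held Col13a1 at 59 UMIs (99.8 CPM) in the null-labelled imiquimod and 5 UMIs (24.4 CPM) in the null-labelled untreated library, against 0 UMIs in both control libraries. Their Col18a1 stood at 76.1 CPM (45 UMIs) in the null-labelled imiquimod, 34.2 (7) in the null-labelled untreated, 23.2 (4) in the control imiquimod and 13.4 (2) in the control untreated library. Only the control untreated interval (1.63 to 48.5) lay apart from the null-labelled imiquimod one (55.5 to 102). Col4a1 stood at 225 CPM in the null-labelled imiquimod, 234 in the null-labelled untreated, 157 in the control imiquimod and 181 in the control untreated library. Col1a1 in these cells stood at 135 CPM in the null-labelled imiquimod, 1593 in the null-labelled untreated, 145 in the control imiquimod and 7696 in the control untreated library. The part of fibroblast RNA in these values was not tested.

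Sebocytes held 30 Col23a1 UMIs in the null-labelled imiquimod library, or 24.8 CPM (16.7 to 35.4). They held 1 in the null-labelled untreated (1.45 CPM), 0 in the control imiquimod and 1 in the control untreated library (1.42 CPM). The sebocyte cluster held 23 control imiquimod cells, and the upper limit for that 0 was 21.6 CPM. Sebocyte Col17a1 stood at 129 CPM in the null-labelled imiquimod, 117 in the null-labelled untreated, 117 in the control imiquimod and 96.9 in the control untreated library. Lymphatic endothelial cells held Col23a1 in every library, at 84.5 CPM in the null-labelled imiquimod, 35.2 in the null-labelled untreated, 59.4 in the control imiquimod and 48.1 in the control untreated library. Bulge cells held Col4a3, a collagen IV chain, at 2.0 CPM in the null-labelled imiquimod (2 UMIs), 3.15 in the null-labelled untreated (3), 12.8 in the control imiquimod (9) and 12.3 in the control untreated library (10). Their counting intervals overlapped.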
